A study of Mus musculus with 5 samples.

Results

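The EGF receptor family is described here through 10 genes: the receptors Egfr, Erbb2 and Erbb3, the ligands Areg, Ereg, Hbegf, Tgfa, Btc and Epgn, and the receptor inhibitor Errfi1. They were taken by symbol from 24347 genes, and their 11 transcripts, of 34535 in all, were summed by symbol in each library. All 5 libraries were amplified cDNA of small pools of cells, sorted by flow cytometry from precancerous mammary lesions with an antibody to the avian virus receptor TVA. Every mouse carried the MMTV-Wnt-1 transgene, in which the MMTV promoter drives Wnt-1 in mammary epithelium, on a mixed FVB, SJL and C57BL/6 background. The 2 Krt6a+ libraries (numbered 2 and 3) were of cells called keratin 6a positive precancerous stem cells, and the 3 WAP+ libraries (numbered 1 to 3) of cells positive for whey acidic protein, a milk protein of differentiated mammary cells. The labels give no age and no treatment, do not say whether libraries came from separate animals, and do not say how TVA marked each population, so the p-values reflect only the spread among these 5 samples, and that may be technical.

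Receptors of this family sit in the cell membrane, pair when a ligand binds and phosphorylate each other inside the cell, which switches on the RAS-ERK and PI3K-AKT cascades. Ligands are made as membrane-anchored precursors and are released by metalloproteases, and Errfi1 (also called MIG6) is induced by the signal and binds the receptor kinase to switch it off. In the mammary gland amphiregulin, the product of Areg, relays estrogen signals during duct growth, and Erbb2 is known as a breast cancer oncogene.

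Levels were FPKM, fragments scaled to transcript length and to the mapped fragments of the library, and the 95% intervals deposited with them corresponded to about 3840000 to 5520000 fragments per library, read as counting error only. Krt6a stood at FPKM 1380 and 1133 in Krt6a+ against 168, 50.0 and 120 in WAP+ libraries. Wap was listed at 0 in both Krt6a+ libraries and had FPKM 50.1, 126 and 13.9 in WAP+ libraries. The epithelial markers Epcam, Cdh1, Krt5, Krt8, Krt14 and Krt18 were at FPKM 1 or more in every library, but their levels differed between the populations. Krt5 (434 and 374 against 22.4, 13.4 and 34.7) and Krt14 (2284 and 2263 against 936, 130 and 862) were higher in Krt6a+. Epcam, Krt8 and Krt18 were higher in every WAP+ library, and Cdh1 overlapped. Meanwhile 6 of 10 immune markers (Ptprc, Cd3e and Itgam among them) and 4 of 5 adipocyte markers (Adipoq among them) were listed at 0 in all 5 libraries. The fifth adipocyte marker, Fabp4, was listed at 0 in both Krt6a+ libraries and had FPKM 2188, 65.8 and 20.3 in the WAP+ libraries. The 10 immune markers summed to FPKM 6.49 and 21.4 in Krt6a+ against 20.7, 36.2 and 136 in WAP+ libraries, with S100a9 listed at 0 in both Krt6a+ libraries and at 10.6, 9.81 and 116 in WAP+. The part of these genes in the results below was not tested. Summed fibroblast markers were at FPKM 57.5 and 210 in Krt6a+ against 18.6, 8.60 and 84.2 in WAP+ libraries, of which Dcn gave 49.4, 210, 16.3, 8.60 and 67.0 in the same order. Krt8 and Krt18, keratins of luminal cells, stood at FPKM 66.2 and 353 in Krt6a+ library 2 and at 719 and 1283 in Krt6a+ library 3, so these libraries differed in luminal signal. In the WAP+ libraries Krt8 stood at 1664, 1917 and 1681 and Krt18 at 4018, 3335 and 3534. WAP+ library 1 also held 5 of 6 endothelial markers at FPKM 1 or more, with a summed FPKM of 147 against 0.0902 to 7.51 in the other 4 libraries. Gapdh, which every cell uses, was listed at 0 in 3 libraries and had only FPKM 1.66 in Krt6a+ library 3 and 1.48 in WAP+ library 2. A value of 0 can thus be a failed estimate, and a value above 0 can be too low.

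The family was expressed in both populations, and no member passed the test between them. Hbegf and Errfi1 were abundant everywhere, at levels above 90.6% or more of the tested genes in every library. Erbb3 and Tgfa were higher in both Krt6a+ libraries than in every WAP+ library, but not by enough to pass. Egfr and Areg differed more between the 2 Krt6a+ libraries than between the populations, and in opposite directions. Of the 10 members, 9 had FPKM 1 or more in at least 2 libraries and were tested, and Btc did not. By limma on log2(scaled FPKM + 1), with p adjusted over 9682 genes, 0 of the 9 passed 0.05, against 0.692% of all tested genes. At an unadjusted p under 0.05, 1 of the 9 passed (Erbb3), against 17.1% of all. Groups did not overlap for 2 of the 9, against 34.8% of all tested genes. Both were higher in Krt6a+ (17.4% of all), and 0 were higher in WAP+ (17.4%). The median log2 difference, Krt6a+ minus WAP+, was 0.15 over the 9 members and -0.01 over all tested genes.

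**Figure D1:**
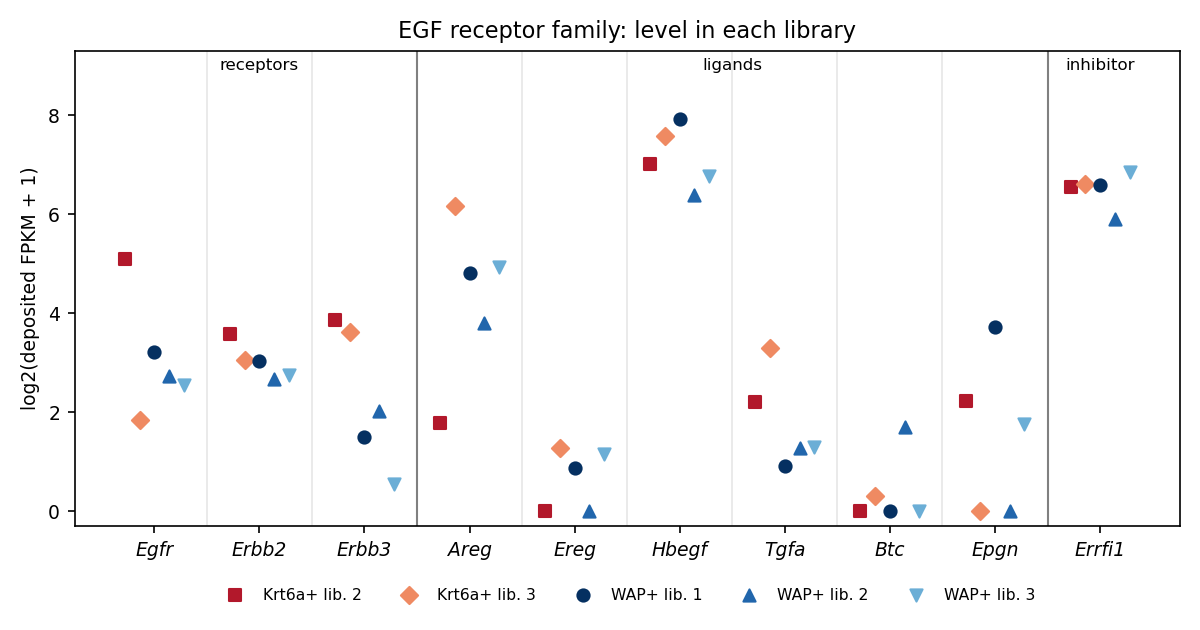
Level of each member in each library, as log2(deposited FPKM + 1); squares and diamonds are Krt6a+ libraries 2 and 3, and circles and triangles are WAP+ libraries 1 to 3. Hbegf and Errfi1 are at the top in all libraries, Erbb3 and Tgfa have both Krt6a+ points above all WAP+ points, and the Krt6a+ points of Egfr and Areg lie far apart.

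Among the receptors, Erbb3 showed the largest separation of the populations. ERBB3 binds neuregulins and, having a nearly inactive kinase, signals by pairing with another member, above all ERBB2. Its transcript (NM_010153, mm10 chromosome 10, 128569368 to 128589501) had FPKM 13.6 and 11.3 in Krt6a+ against 1.84, 3.08 and 0.461 in WAP+ libraries. Both deposited Krt6a+ values were thus more than 3 times the highest WAP+ value. Once scaled, Krt6a+ library 3 came to 9.98 and WAP+ library 2 to 3.39, slightly less than 3 times apart. Mean scaled FPKM was 11.9 ± 2.77 (SD, n = 2) for Krt6a+ against 1.84 ± 1.45 (SD, n = 3) for WAP+. On the log2(scaled FPKM + 1) scale, which understates changes of low genes, the difference was 2.30 ± 0.71 (SE), 4.93-fold, and it did not pass (limma, adjusted p = 0.159, unadjusted p = 0.0118). Its 95% interval, not adjusted for the number of genes, ran from 0.67 to 3.93. The lowest value, in WAP+ library 3, rested on about 11 fragments, and those of Krt6a+ libraries 2 and 3 on about 423 and 301. Without each library in turn the difference lay between 1.91 and 2.67 and did not pass (limma, adjusted p = 0.194 to 0.344). In this and every later refit without a Krt6a+ library that group holds 1 library, assumed to vary like the WAP+ libraries.

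Erbb2, the ligandless partner of the other receptors, was the most even receptor (NM_001003817, mm10 chromosome 11, 98412484 to 98437716). It had FPKM 11.0 and 7.30 in Krt6a+ against 7.14, 5.36 and 5.73 in WAP+ libraries. Once scaled, the groups overlapped, since Krt6a+ library 3 came to 6.47 and WAP+ library 3 to 6.56. The log2 difference was 0.40 ± 0.57 (SE; limma, adjusted p = 0.777), with a 95% interval from -0.91 to 1.71, so that a change of up to 3.28-fold could not be told from none. Within WAP+ the log2 range of Erbb2 was 0.13, and 98.0% of tested genes had a range at least as wide.

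Egfr, the receptor for all 6 ligands, had FPKM 33.2 and 2.60 in Krt6a+ against 8.22, 5.66 and 4.82 in WAP+ libraries. The Krt6a+ libraries held both the highest and the lowest value, 12.8-fold apart, and the WAP+ libraries lay between them. A log2 gap between Krt6a+ libraries as large as that of Egfr, 3.40, was seen in 2.96% of tested genes, and the median gap was 0.85. The log2 difference between populations was 0.56 ± 0.95 (SE; limma, adjusted p = 0.825; 95% interval -1.64 to 2.76). It was 2.26 without Krt6a+ library 3 and -1.14 without Krt6a+ library 2, neither past the threshold (limma, adjusted p = 0.119 and 0.521), so its direction rested on a single library.

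The Egfr value of Krt6a+ library 2 came mostly from a short transcript. Egfr lies on the plus strand of mm10 chromosome 11 and has 2 transcripts in the files: NM_207655 (16752203 to 16913907), which codes the full receptor of 1210 amino acids, and NM_007912 (16752203 to 16887658), which codes 655 amino acids. The short product is a truncated receptor that keeps the ligand-binding extracellular part and lacks the membrane-spanning and kinase parts. In the GENCODE annotation of the same build both share 1925 coding bases, up to position 16887185 in exon 16. There the full transcript is spliced to exon 17 at 16889913, and the short one reads on into the intron at 16887186, where 43 more coding bases include its stop codon. The sequences below show that fork, since it is what sets the forms apart: lower case marks the last 30 shared coding bases and capitals the first 30 bases that each form has for itself.
NM_207655, full receptor: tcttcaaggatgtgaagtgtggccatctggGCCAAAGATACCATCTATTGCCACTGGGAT
NM_007912, short form: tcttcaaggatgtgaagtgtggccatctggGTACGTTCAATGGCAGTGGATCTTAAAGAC
The capitals of the short form begin with GT, the bases at which the full transcript is spliced.

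The short form had FPKM 23.2 in Krt6a+ library 2 (95% counting interval 20.3 to 26.0) and 3.81 in WAP+ library 1 (2.40 to 5.23). In the other 3 libraries it was listed at 0, with upper bounds of 0.135, 0.119 and 0.146. It therefore made up 69.7% of Egfr FPKM in Krt6a+ library 2 and 46.4% in WAP+ library 1. The full form had FPKM 10.1 and 2.60 in Krt6a+ against 4.40, 5.66 and 4.82 in WAP+ libraries, so the Krt6a+ libraries still bracketed the others. Tested on its own, it had a log2 difference of 0.03 (limma over single transcripts, adjusted p = 0.991). Reads in the shared exons were divided between the forms by the authors' software, unspliced RNA would also hold the bases that only the short form has, and the part of either in these values was not tested.

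**Figure D2:**
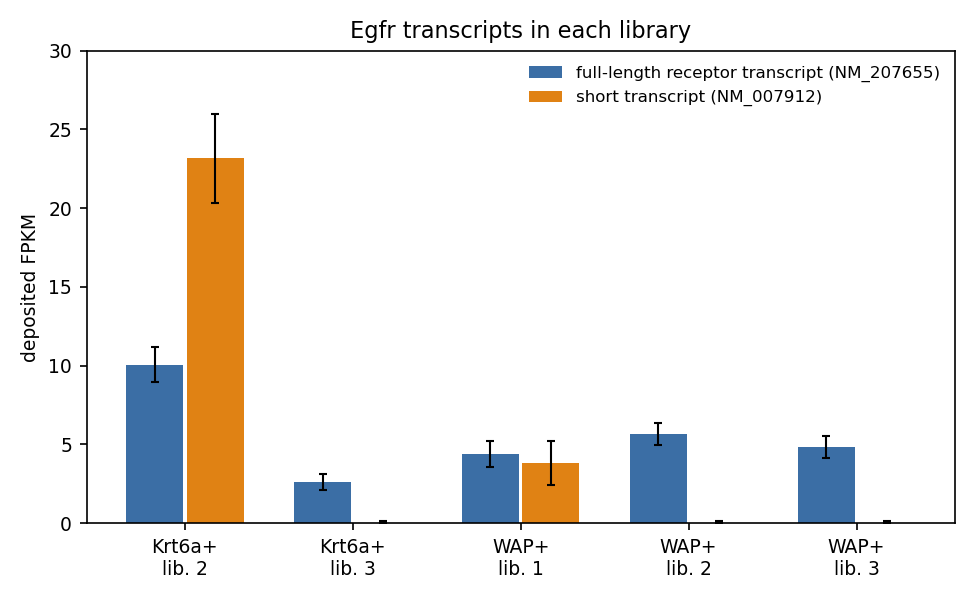
FPKM of the full-length and the short Egfr transcript in each library; bars start at 0 and error bars are the deposited 95% counting intervals. The short form reaches 23.2 in Krt6a+ library 2 and 3.81 in WAP+ library 1 and is listed at 0 in the other 3 libraries.

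Hbegf was the most abundant ligand gene in every library. Its product, heparin-binding EGF-like growth factor, binds EGFR and ERBB4 and is known for its part in epithelial wound healing. It had FPKM 129 and 191 in Krt6a+ against 241, 82.9 and 109 in WAP+ libraries, so that WAP+ held both the highest and the lowest value. Mean scaled FPKM was 150 ± 26.9 (SD, n = 2) for Krt6a+ against 142 ± 62.1 (SD, n = 3) for WAP+. The log2 difference was 0.15 ± 0.44 (SE; limma, adjusted p = 0.905) with a 95% interval from -0.86 to 1.17, which leaves room for a change of up to 2.25-fold in favour of Krt6a+. The highest value was in WAP+ library 1, the library with the endothelial markers, and their part in it was not tested. Without that library the log2 difference was 0.47.

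Areg was second among the ligands in all libraries but Krt6a+ library 2. It had FPKM 2.44 and 70.8 in Krt6a+ against 27.1, 13.0 and 29.4 in WAP+ libraries (NM_009704, mm10 chromosome 5, 91139615 to 91148432). The Krt6a+ libraries were 29.0-fold apart and lay on either side of all WAP+ libraries, the mirror image of Egfr. The value of Krt6a+ library 2 rested on about 13 fragments and had a counting interval of 1.09 to 3.80, against 62.1 to 79.5 in Krt6a+ library 3, so the gap exceeded counting error. A log2 gap as large as that of Areg, 4.19, was seen in 0.909% of tested genes. The log2 difference between populations was -0.66 ± 1.09 (SE; limma, adjusted p = 0.817; 95% interval -3.19 to 1.86). It was -2.74 without Krt6a+ library 3 and 1.44 without Krt6a+ library 2 (limma, adjusted p = 0.0889 and 0.329). Krt6a+ library 3, with the higher Areg, was also the Krt6a+ library with more Krt8 (719 against 66.2) and Krt18 (1283 against 353). The WAP+ libraries had more of both (Krt8 1664, 1917 and 1681, Krt18 4018, 3335 and 3534), yet less Areg than Krt6a+ library 3. The part of luminal signal in the Areg gap was not tested.

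Tgfa, which codes TGF-alpha, a ligand of EGFR alone and a classic growth factor of keratinocytes, was low but ordered by population. It had FPKM 3.58 and 8.88 in Krt6a+ against 0.892, 1.41 and 1.44 in WAP+ libraries (NM_031199, mm10 chromosome 6, 86195251 to 86275449). The groups did not overlap, and the counting interval of the lowest Krt6a+ value, 2.89 to 4.26, lay above the highest upper bound in WAP+, 1.91. The log2 difference was 1.49 ± 0.67 (SE), 2.80-fold, and did not pass (limma, adjusted p = 0.309, unadjusted p = 0.0573). Its 95% interval ran from -0.06 to 3.03. It was positive in all 16 alternative fits and passed in 0.

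The remaining ligands, Epgn, Ereg and Btc, were each listed at 0 in 2 or 3 libraries, and such a 0 can be a failed estimate. Epgn (epigen) had FPKM 3.70 and 0 in Krt6a+ against 12.2, 0 and 2.38 in WAP+ libraries, and its log2 difference of -0.69 ± 1.14 (SE) did not pass (limma, adjusted p = 0.819). Ereg (epiregulin) had FPKM 0 and 1.43 in Krt6a+ against 0.830, 0 and 1.23 in WAP+ libraries (limma, log2 -0.10 ± 0.65 SE, adjusted p = 0.969). In deposited FPKM its order over the libraries followed that of Areg, with 0 in the 2 libraries where Areg was lowest, while Epgn did not follow it. Once scaled, Ereg was highest in WAP+ library 3 (1.41 against 1.27 in Krt6a+ library 3), and Areg stayed highest in Krt6a+ library 3. Btc (betacellulin, which binds EGFR and ERBB4) had FPKM 0 and 0.229 in Krt6a+ against 0, 2.26 and 0 in WAP+ libraries, and it was not tested. Those Btc values above 0 rested on about 3 and 49 fragments. Epgn, Ereg, Areg and Btc lie in this order on mm10 chromosome 5 between 91027517 and 91402994, with gaps of 39404, 45965 and 208828 bases. Epgn and Btc did not follow the order of deposited FPKM that their neighbours Ereg and Areg had over the libraries.

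FPKM is scaled to length, so levels were set side by side between genes as a description. The libraries were amplified cDNA, and differences between genes in amplification or estimation were not tested. Gapdh, at FPKM 1.66 or less in every library, shows that a level can be far too low. Hbegf gave 93.0% and 70.2% of the summed ligand FPKM in Krt6a+ libraries 2 and 3 and 85.4%, 83.2% and 75.9% in the WAP+ libraries. Areg gave 1.76% and 26.0% in Krt6a+ against 9.62%, 13.1% and 20.6% in WAP+ libraries, and the other 4 ligands made up the rest. The main ligand was thus the same in all 5 libraries, and what varied was the share of Areg. Among the receptors, Egfr gave 57.4% and 12.3% of the summed FPKM in Krt6a+ and 47.8%, 40.1% and 43.7% in WAP+ libraries. Erbb3 gave 23.5% and 53.2% in Krt6a+ against 10.7%, 21.9% and 4.19% in WAP+ libraries. The leading receptor gene was therefore Egfr in Krt6a+ library 2, Erbb3 in Krt6a+ library 3, Egfr in WAP+ libraries 1 and 2 and Erbb2 in WAP+ library 3. By single transcripts Erbb2 led in WAP+ library 1, at FPKM 7.14 against 4.40 for the full Egfr form. In Krt6a+ library 2 the full Egfr form had FPKM 10.1, below Erbb3 at 13.6 and Erbb2 at 11.0. The lead of Egfr in that library thus came from the short form, at 23.2. Receptor FPKM summed to 57.9 and 21.2 in Krt6a+ against 17.2, 14.1 and 11.0 in WAP+ libraries, and ligand FPKM to 138 and 272 against 282, 99.6 and 143. Both Krt6a+ libraries had a higher receptor sum than each WAP+ library, while the ligand sums overlapped. The higher sum was not shared by all 3 receptors. In Krt6a+ library 3 Erbb3 gave 53.2% of it, and Egfr, at 2.60, was below every WAP+ library. In Krt6a+ library 2 the short Egfr form gave 23.2 of the 57.9.

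**Figure D3:**
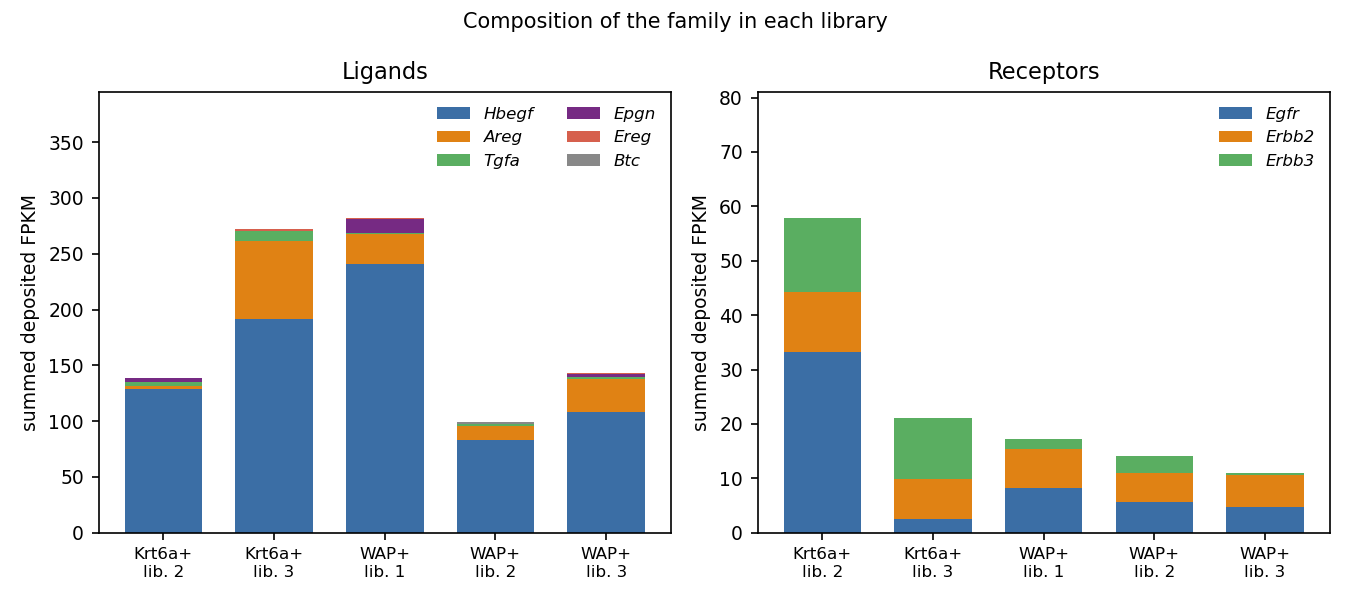
Summed deposited FPKM of the 6 ligands (left) and the 3 receptors (right) in each library, split by gene; bars start at 0. Hbegf is the largest part of the ligand bar in every library, and the Erbb3 part of the receptor bar is largest in the Krt6a+ libraries (13.6 and 11.3).

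Errfi1, the feedback inhibitor, was the member nearest to equal between the populations. It had FPKM 92.3 and 96.3 in Krt6a+ against 95.7, 58.5 and 114 in WAP+ libraries (NM_133753, mm10 chromosome 4, 150855091 to 150868880). The Krt6a+ values fell inside the WAP+ range. Mean scaled FPKM was 89.8 ± 6.29 (SD, n = 2) for Krt6a+ against 92.9 ± 33.9 (SD, n = 3) for WAP+. The log2 difference was 0.01 ± 0.42 (SE; limma, adjusted p = 0.995). The 95% interval, -0.95 to 0.97, allows a change of up to 1.96-fold upward and does not show that the levels are alike.

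In Krt6a+ libraries the order of mean FPKM was Hbegf, Errfi1, Areg, Egfr, Erbb3, Erbb2, Tgfa, Epgn, Ereg and Btc. The ranges of neighbours in this order overlapped except between Hbegf and Errfi1, Errfi1 and Areg, and Erbb3 and Erbb2. In WAP+ libraries the order was Hbegf, Errfi1, Areg, Egfr, Erbb2, Epgn, Erbb3, Tgfa, Btc and Ereg, and only Errfi1 and Areg, and Areg and Egfr, had ranges that did not overlap. The first 4 places were held by the same genes in both populations, and Erbb3 was at place 5 in Krt6a+ and place 7 in WAP+.

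**Figure D4:**
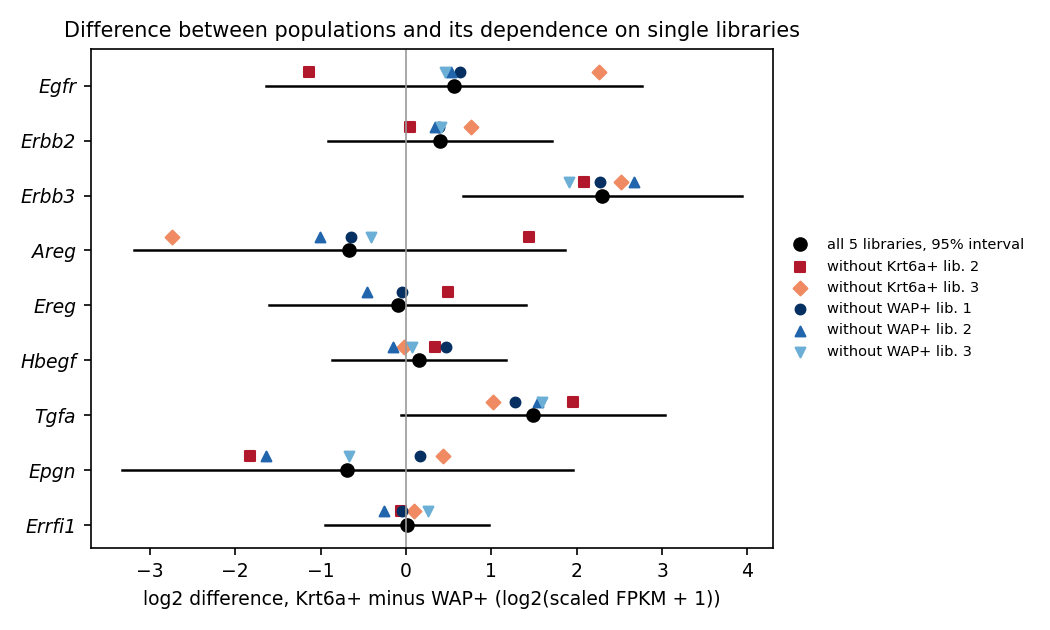
Log2 difference, Krt6a+ minus WAP+, of the 9 tested members with its 95% interval (black), and the same difference without each library in turn (coloured points). Erbb3 and Tgfa stay above 0 in every refit, while Egfr and Areg cross 0 when Krt6a+ library 2 is left out.

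Other genes of the pathway were taken from 5 lists with 77 genes, of which 64 were tested. Of these, 0 passed in either direction (limma, adjusted p from 0.0698 to 0.998), against 0.258% of all tested genes higher and 0.434% lower. At an unadjusted p under 0.05, 9 were higher (7.66% of all tested genes) and 1 was lower (9.45%). Among other ligands and receptors, Egf, Nrg3, Nrg4 and the receptor Erbb4 were listed at 0 in all 5 libraries. Nrg1, a neuregulin that binds ERBB3, was the tested member of that list. It had FPKM 0 and 0.605 in Krt6a+ against 13.2, 0.218 and 11.4 in WAP+ libraries (limma, log2 -2.28 ± 1.11 SE, adjusted p = 0.340). The groups overlapped, because WAP+ library 2 lay below Krt6a+ library 3.

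The ligand shedding list had positive differences in 8 of 8 tested genes, against 4821 of all 9682 tested genes. Its median was 1.08 against -0.01 over all tested genes, and 0 passed. Groups did not overlap for 4 of the 8, all higher in Krt6a+, against 17.4% of all tested genes in that direction and 34.8% in either. This list, like the others, was chosen with earlier results of these data known. Timp3, an inhibitor of the ligand-releasing proteases, had FPKM 291 and 90.8 in Krt6a+ against 28.6, 4.65 and 9.27 in WAP+ libraries (limma, log2 3.67 ± 0.76 SE, adjusted p = 0.0698). It passed with a stricter filter and with genes above 0 in all libraries (limma, adjusted p = 0.0477 and 0.0360). Without Krt6a+ library 3 the difference was 4.60 (limma, adjusted p = 0.0374) and without Krt6a+ library 2 it was 2.74 (limma, adjusted p = 0.175), and without each WAP+ library the adjusted p lay between 0.138 and 0.218. The metalloprotease Adam15 had FPKM 16.0 and 21.8 against 2.52, 1.21 and 3.65, and Adam8 1.23 and 43.6 against 0.107, 0.712 and 1.02 (limma, adjusted p = 0.111 and 0.311). The members of this list with positive differences thus included both proteases and their inhibitor. Adam17, the main ligand sheddase, had FPKM 6.35 and 10.2 in Krt6a+ against 7.44, 3.92 and 2.06 in WAP+ libraries, and the groups overlapped.

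Of 23 tested adaptors and cascade genes, 14 had positive and 9 negative differences (median 0.45), and 0 passed. Map2k1, the kinase MEK1, had FPKM 29.4 and 33.0 in Krt6a+ against 8.84, 9.78 and 8.50 in WAP+ libraries. Its groups were apart and the values within each were close, yet the log2 difference of 1.57 ± 0.47 (SE) missed the threshold (limma, adjusted p = 0.148). Eps8, an EGFR substrate that acts on actin, had FPKM 3.43 and 35.7 against 0.556, 0 and 0.535 (limma, adjusted p = 0.137).

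Feedback inhibitors and turnover genes went both ways, with 11 positive and 8 negative differences among 19 tested (median 0.35) and 0 past the threshold. Dusp4, a phosphatase of MAP kinases, had FPKM 54.4 and 14.5 in Krt6a+ against 0.109, 0.158 and 4.05 in WAP+ libraries (limma, log2 3.85 ± 0.97 SE, adjusted p = 0.108). Lrrk1, a kinase that takes part in EGFR trafficking, had 6.22 and 4.69 against 0.369, 0.283 and 0.195, and the ubiquitin ligase Cblb 6.29 and 9.94 against 1.57, 1.55 and 0.220 (limma, adjusted p = 0.118 and 0.175). Over the whole list, groups did not overlap for 4 genes higher and 2 lower in Krt6a+ of the 19, near the 34.8% of all tested genes. Lrrk1 passed with genes above 0 in all libraries (limma, adjusted p = 0.0462).

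Early response targets, transcribed soon after receptor activation, had a median difference of -0.10 over 13 tested genes, 6 positive and 7 negative, with 0 past the threshold. Phlda1 had FPKM 46.5 and 119 in Krt6a+ against 195, 209 and 140 in WAP+ libraries, the reverse order of most named pathway genes (limma, log2 -1.37 ± 0.44 SE, adjusted p = 0.172). Egr2, a zinc finger transcription factor, had FPKM 4.47 and 7.12 against 3.02, 0.217 and 1.47 (limma, adjusted p = 0.347). Phlda2 had 34.2 and 0 against 60.7, 18.9 and 23.7 (limma, log2 -2.42 ± 1.31 SE, adjusted p = 0.396), and its difference was 0.17 without Krt6a+ library 3, where it was listed at 0, and -5.01 without Krt6a+ library 2 (limma, adjusted p = 0.0302). That last refit sets a single listed 0, which can be a failed estimate, against the spread of the WAP+ libraries.

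**Figure D5:**
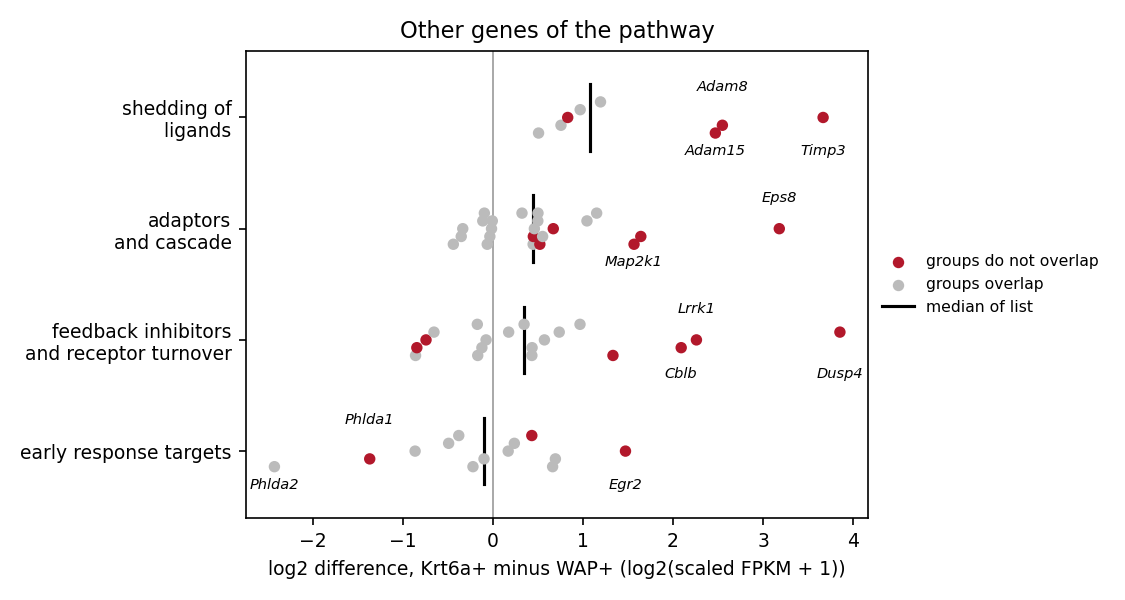
Log2 difference, Krt6a+ minus WAP+, of each tested gene in 4 pathway lists; each point is a gene, red points have groups that do not overlap, and black bars mark the list medians (1.08, 0.45, 0.35 and -0.10 from top to bottom). None of the genes shown passed the test as described with all 5 libraries; Timp3 and Lrrk1 passed under other filters on low values.

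Genes with the most similar pattern were ranked by the Euclidean distance of their centred log2(scaled FPKM + 1) values over the 5 libraries, for the tested members with the largest positive and negative statistic. The nearest to Erbb3 were Ssfa2, Lin54 and Cog2, at distances of 0.31, 0.46 and 0.46. Ssfa2 had FPKM 14.0 and 14.7 in Krt6a+ against 2.30, 3.00 and 0.669 in WAP+ libraries. The nearest to Areg were Slc35c2, Wnt11 and Odc1, at distances of 0.45, 0.52 and 0.53. Odc1, the ornithine decarboxylase of polyamine synthesis, had FPKM 1.77 and 52.5 in Krt6a+ against 19.7, 13.9 and 18.9 in WAP+ libraries, with the same lowest and highest library as Areg. With only 5 libraries in each profile, such matches are a description.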

How the data were processed

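The submitters' processing notes name TopHat, Cufflinks and build mm10, and no version is given in the sources used here. The authors deposited, per the file headers, an FPKM with its 95% interval for each RefSeq transcript in each library, and a coverage signal (read depth per base), which was not used for any result. The labels name a full-length cDNA kit and paired reads of 100 bases, and the kit does not mark the strand. Transcripts were summed by symbol. Each library was scaled by its median ratio to the geometric mean (factors 0.873 to 1.14), taken over 5334 genes that had FPKM 1 or more in every library. Genes at FPKM 1 or more in at least 2 libraries were tested, with a pseudocount of 1, by limma 3.58.1 in R 4.3.3 (two-sided, with a mean-variance trend; residual degrees of freedom 3, prior 4.87; Benjamini-Hochberg over all tested genes, threshold 0.05). SDs are over libraries, SEs and 95% intervals are moderated, and fragments behind a value were estimated by reading its interval as 2 SD of counting error. An exact permutation test of 2 against 3 libraries cannot go below p = 0.1, so none was run. The procedure was tested on simulated data.

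The members and gene lists were chosen with earlier results of these data known. The genes named were the members, up to 3 genes per pathway list with the largest moderated statistic, the 3 nearest patterns to the members with the largest positive and the largest negative statistic, and Krt6a and Wap; 1 gene of the adaptor and cascade list that the rule names is not reported here. Adam17, Egf, Nrg3, Nrg4, Erbb4, Gapdh and the cell markers were added after their values were seen. Egfr exons came from the GENCODE annotation of mm10, matched by RefSeq identifier.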

Additional observations from a re-analysis of the deposited data

How the results depend on the processing

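Over the alternatives, 126 of 139 refits of the 9 members kept the direction, 13 reversed it and 0 passed the threshold. Erbb2, Erbb3 and Tgfa kept theirs in all 16 (log2 0.05 to 0.76, 1.32 to 2.93 and 0.74 to 2.00). Leaving out each library in turn gave -1.14 to 2.26 for Egfr, -2.74 to 1.44 for Areg, -0.15 to 0.47 for Hbegf, -1.82 to 0.43 for Epgn and -0.25 to 0.26 for Errfi1. Ereg ran from -0.46 to 0.50 without Krt6a+ library 2, WAP+ library 1 or WAP+ library 2, and without Krt6a+ library 3 or WAP+ library 3 it did not pass the filter. Quantile normalization reversed Ereg (0.0080). With a replicate block Epgn (0.18) and Errfi1 (-0.032) reversed, and 15 genes in all were higher and 19 lower. Deviations of same-numbered libraries from their group means were not correlated (r = 0.050 and 0.00027 for numbers 2 and 3). With 2 Krt6a+ libraries these deviations mirror each other, so the values cannot tell whether same-numbered libraries share an animal or a batch. The cause of these reversals was not tested.

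All genes past the threshold numbered 25 higher and 42 lower. The higher genes were 6 with a pseudocount of 0.1, 41 with 5, 2 with no filter, 66 with a stricter filter (FPKM 1 or more in at least 3 libraries), 69 with genes above 0 in all libraries, 39 with quantile normalization and 7 with no mean-variance trend. The lower genes were 20 with a pseudocount of 0.1, 3 with no filter, 93 with a stricter filter, 64 with genes above 0 in all libraries, 27 with no scaling and 9 with no trend. Without each library in turn they ran from 2 to 44 and from 3 to 103. Pathway genes past the threshold were 1 higher with a stricter filter (Timp3), 2 higher with genes above 0 in all libraries (Timp3 and Lrrk1), and 0 to 1 higher and 0 to 1 lower without each library in turn (Timp3 and Phlda2). Without each library in turn Phlda2 ran from -5.01 to 0.17. The genes nearest to Areg reversed with it without Krt6a+ library 2, and over the libraries left out Slc35c2 ran from -3.06 to 1.45, Wnt11 from -2.29 to 1.38 and Odc1 from -2.73 to 1.33. Wnt11 also reversed with a pseudocount of 5 (0.0083). Krt6a lost its call in 7 alternatives and Wap in 8. With the highest transcript per symbol Egfr gave 38.9% of WAP+ receptor FPKM, against 43.9%. Testing transcripts singly, and the shares, were added after the data were seen. With 2 against 3 libraries, the number of libraries limits the precision, and counting depth limits Btc, Ereg and Epgn, whose values above 0 rested on about 3 to 85 fragments.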
